A study of Mus musculus with 8 samples.

Results

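The genes described here encode subunits of the oxidative phosphorylation machinery, and their RNA was sequenced from stimulated mouse CD8+ T cells. They were chosen by name alone: every gene symbol of the count table beginning with Nduf and a subunit letter, Uqcr, Cox4 to Cox8 or Atp5, together with Sdha, Sdhb, Sdhc and Sdhd. This gave 87 members of 24976 symbols, of which 37 belong to complex I, 4 to complex II, 9 to complex III, 19 to complex IV and 18 to complex V. Ndufa4 and Ndufa4l2 carry a complex I name but are counted under complex IV, where the Ndufa4 protein is known to sit. The libraries fall into 4 groups of 2: dKO at 48 h, WT at 48 h, dKO at 24 h and WT at 24 h. The cells labelled dKO came from mice with both Nr4a1 and Nr4a2 floxed on both alleles and a Cd8Cre transgene, and the WT cells from their wild-type littermates. Naive CD8+ T cells of both genotypes were stimulated with anti-CD3 and anti-CD28 in the presence of IL2. Nr4a1 and Nr4a2 encode nuclear receptors that are induced by T cell receptor signals. The Cre is named for Cd8, and no label says whether WT mice carried it, nor gives age, sex or strain. No label says whether the 2 libraries of a group came from separate cultures or mice, so p-values measure only the spread between these libraries.

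Oxidative phosphorylation takes electrons from NADH at complex I and from succinate at complex II, passes them through ubiquinone to complex III and through cytochrome c to complex IV, and uses the proton gradient so made to drive the ATP synthase, complex V. Nuclear genes encode most subunits, and mitochondrial DNA encodes a core set, which was not analysed here. T cells leaving quiescence are known to enlarge their mitochondrial pool while they turn up glycolysis. In bulk RNA, fewer cells of a type and less RNA per cell cannot be told apart.

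Total counts ran from 5000952 to 21686236 per library. Values are TMM-scaled counts per 1000000 counts (CPM) unless stated otherwise, and genes were called at an adjusted p below 0.05 in edgeR's quasi-likelihood test over all 12742 genes that passed a filter on low counts. Of the 87 members, 82 passed that filter; Cox4i2, Cox6a2, Cox7a1, Cox8b and Atp5c1-ps did not. Values of Atp5c1-ps, Uqcrh-ps1 and Ndufb4c, which are copies of other members, are uncertain, since how reads shared between copies were counted is not given in the sources used here. Of the members, 30 overlap a gene on the other strand in the GENCODE M21 annotation (GRCm38), and the strand rule of the counting is not given either. Gene positions below are from that annotation. Of the genes targeted in the dKO mice, neither was called lower in the libraries labelled dKO. Nr4a2 had 72.9 and 75.2 CPM in dKO and 20.5 and 29.1 CPM in WT libraries at 48 h, and 157 and 146 CPM in dKO and 61.7 and 57.5 CPM in WT libraries at 24 h, over total counts. Its log2 fold change was 1.38 at 48 h (edgeR adjusted p = 0.00982), a call in the direction opposite to the label. Nr4a1 had 613 and 651 CPM in dKO and 735 and 682 CPM in WT libraries at 48 h, which did not overlap, with a log2 fold change of -0.35 that was not called (edgeR adjusted p = 0.380), and 589 and 545 CPM in dKO and 542 and 322 CPM in WT libraries at 24 h. Whether reads can come from floxed alleles is not given, so "dKO" below always means the libraries labelled dKO. The genotype labels also divided the libraries by Xist and by 4 Y-linked genes. Over total counts, Xist had 0.719 to 1.80 CPM in dKO and 323 to 805 CPM in WT libraries. The Y-linked genes summed to 131 to 175 CPM in dKO and 1.28 to 1.75 CPM in WT libraries. Sex-linked expression and the genotype label thus split the 8 libraries alike. In every comparison of dKO with WT the 2 cannot be told apart. The 3 X-linked members are marked below. The 5 markers of CD8 T cells summed to 1464 to 1540 CPM in dKO and 965 to 1199 CPM in WT at 48 h, and to 1504 to 1517 CPM in dKO and 1789 to 1962 CPM in WT at 24 h. The 4 markers of CD4 or regulatory T cells summed to 85.0 to 89.0 CPM in dKO and 54.1 to 79.4 CPM in WT at 48 h, most of it Ctla4. At 24 h they summed to 19.9 to 20.4 CPM in dKO and 22.0 to 29.9 CPM in WT. Of these markers Cd4 had 0 to 2 counts and Foxp3 9 to 55 counts in every library. Ebf1 of B cells, Lyz2 of myeloid cells and Hbb-bs and Hba-a1 of red cells were at 0 in every library. The 4 B cell markers in the table summed to 2.71 to 6.87 CPM, most of it Cd79b. The 4 myeloid markers in the table summed to 4.93 to 5.03 CPM in dKO and 9.499 to 11.3 CPM in WT at 48 h, most of it Cd14, which was called lower in dKO (-1.22, edgeR adjusted p = 0.0162). The 5 red cell and platelet markers summed to 1.15 to 1.52 CPM in dKO and 2.56 to 2.95 CPM in WT at 48 h, most of it Pf4. The part of these levels in any result was not tested. Replicates correlated at r = 0.985 to 0.989 over all genes tested except in WT at 48 h, where r was 0.965.

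As a whole, transcripts of the 87 members made up a larger share of the library in dKO than in WT cells at 48 h, and a larger share in dKO cells at 48 h than at 24 h. They took 1.87% and 1.83% of all counts in dKO and 1.72% and 1.33% in WT at 48 h. At 24 h they took 1.63% and 1.66% in dKO and 1.54% and 1.504% in WT. In these shares the dKO and WT libraries did not overlap at either time, but the WT libraries at 48 h stood farther apart from each other than replicate 1 of them stood from dKO. In TMM-scaled CPM the groups overlapped at both times. The members summed to 19356 and 18787 CPM in dKO and 20544 and 15137 CPM in WT at 48 h. At 24 h they summed to 14721 and 15400 CPM in dKO and 14944 and 12836 CPM in WT. Cox7b alone held 9.18% to 28.3% of the members' counts, and without it the sums did not overlap. They were then 17039 and 16550.5 CPM in dKO and 15899 and 10858 CPM in WT at 48 h. At 24 h they were 13297 and 13986 CPM in dKO and 12825 and 11617 CPM in WT. Wilson 95% intervals reached at most 0.0112 percentage points to either side, and cover counting error only. Replicate 2 of WT at 48 h, the deepest library, also had 7.04% of its counts in ribosomal protein genes named Rpl or Rps, against 10.999% to 13.4% in the other libraries. The part of that in the members' values was not tested.

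**Figure D1:**
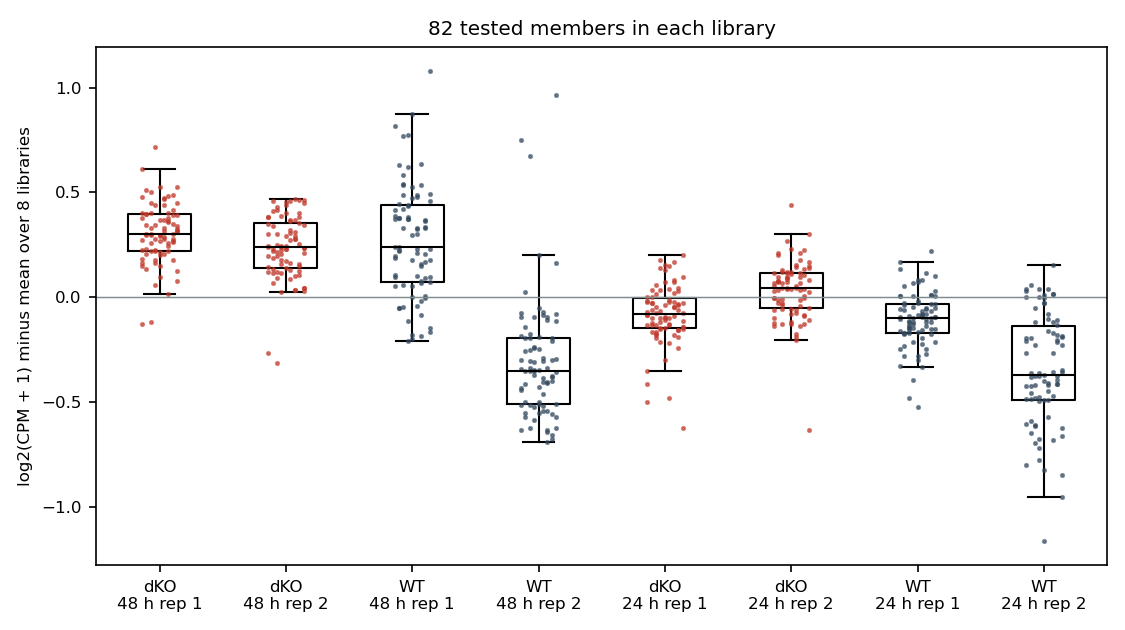
Level of each of the 82 tested members in each of the 8 libraries, as log2(CPM + 1) minus that gene's mean over all libraries. Points are genes, boxes span the quartiles with a line at the median and whiskers reach at most 1.5 box heights. The medians of both dKO libraries at 48 h are 0.30 and 0.24, while those of the WT libraries at 48 h are 0.24 and -0.35.

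At 48 h, subunit transcripts were for the most part a little higher in dKO than in WT cells, and the members called lower lay in complex IV. Of the 82 tested members, 77 had a positive log2 fold change, and the median was 0.29, against -0.03 over all genes tested. The test called 6 members higher and 3 lower. DESeq2 called 7 higher, which include the 6 of edgeR and Uqcrfs1, and of the lower ones it called Cox7b. Over all genes 3.19% were called higher, 8.04% lower and 11.2% in either direction, so the members' calls of both directions together lie close to the background. By direction, the members' few calls were more often higher and those of all genes more often lower. At an unadjusted p below 0.05, 24 members were higher and 3 lower, against 1785 and 2429 of all 12742 genes. Without the 3 X-linked members, 6 were called higher and 2 lower, with a median of 0.30. Both dKO libraries lay above both WT libraries for 35 members and below them for 3, against 28.3% and 28.6% of all genes. By complex, the median log2 fold change was 0.26 for complex I, 0.60 for complex II, 0.24 for complex III, 0.15 for complex IV and 0.30 for complex V. Without replicate 2 of WT at 48 h these medians were -0.03, 0.33, 0.02, -0.19 and 0.19, and without replicate 1 of that group they were 0.62, 0.91, 0.58, 0.56 and 0.68.

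**Figure D2:**
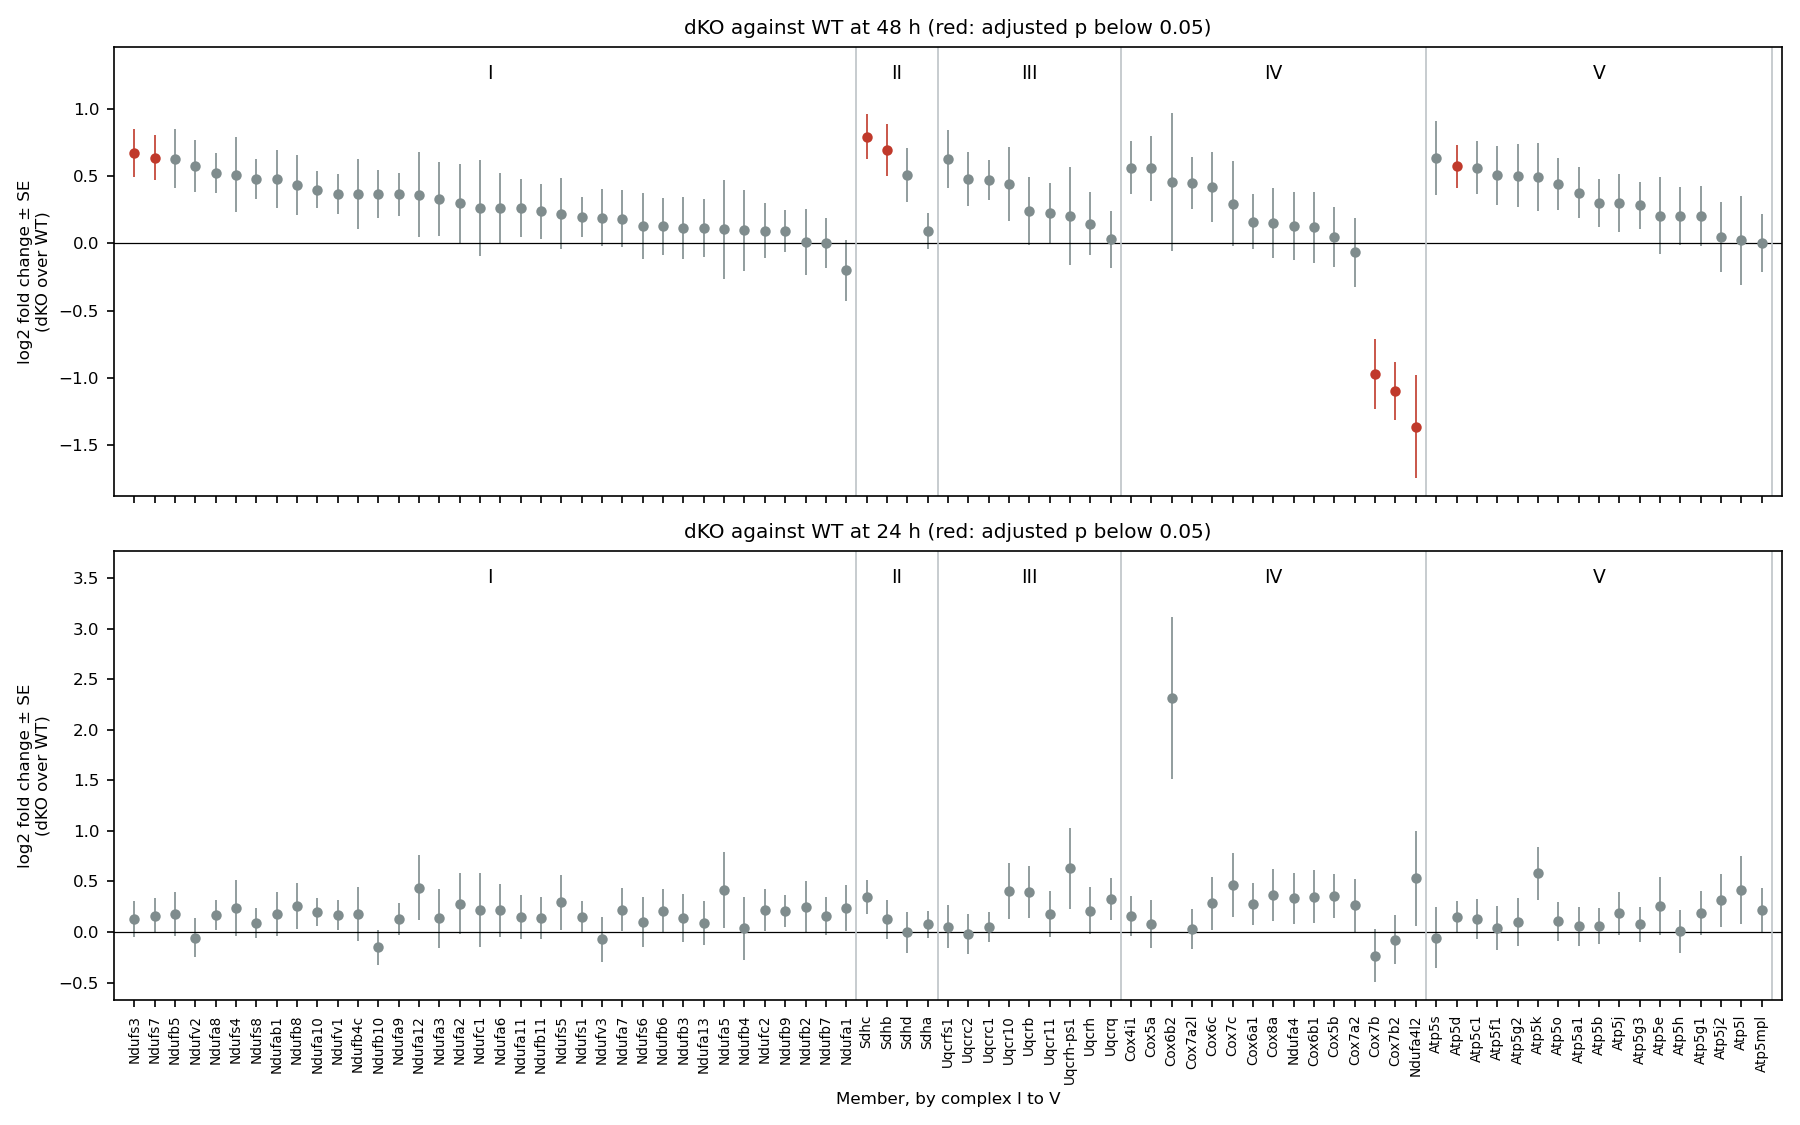
Log2 fold change, dKO over WT, of tested members at 48 h (upper panel) and at 24 h (lower panel), ordered by complex and by the 48 h value. Points are edgeR estimates, bars are 1 standard error, and red marks an adjusted p below 0.05. At 48 h Ndufs3, Ndufs7, Sdhc, Sdhb and Atp5d stand above 0 in red, and Cox7b, Cox7b2 and Ndufa4l2 of complex IV below it. At 24 h none is red.

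The members' values and calls changed with the libraries in the fit, and so did the calls over all genes. Leaving out replicate 1 of WT at 48 h gave a median log2 fold change of 0.61 over the members, against -0.04 over all genes. Leaving out replicate 2 of that group gave a median of 0.02, against -0.002 over all genes, with 43 of 83 tested members above 0. Of the calls higher, that of Sdhc alone held without either WT library at 24 h, and none held without any single dKO library. Of the calls lower, none held in every such fit, and the members called were not always the same. The log2 fold change ran from -1.03 to -0.92 for Cox7b, -1.17 to -1.03 for Cox7b2 and -1.55 to -1.18 for Ndufa4l2. Ndufa1 of complex I, not called in the full fit, had -0.54 without replicate 2 of WT at 48 h and 0.18 without replicate 1.

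**Figure D3:**
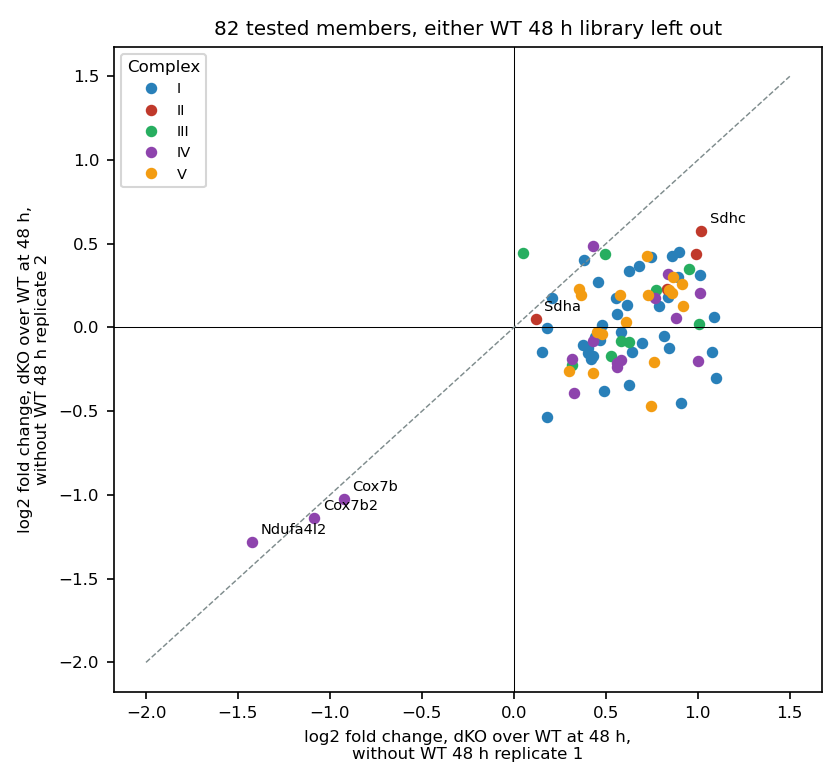
Log2 fold change of each tested member, dKO over WT at 48 h, without replicate 1 of WT at 48 h (x axis) and without replicate 2 (y axis). Points are genes coloured by complex, and the dashed line marks equal values. Cox7b, Cox7b2 and Ndufa4l2 lie near the line below 0, whereas most other members lie well under the line, with a median of 0.61 on the x axis and 0.02 on the y axis.

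Complex I takes NADH's electrons through a chain of flavin and iron-sulfur clusters carried by a conserved core. Its 30 accessory members had a median log2 fold change of 0.25 at 48 h, with 0 called in either direction by edgeR or DESeq2. At an unadjusted p below 0.05, 4 of them were higher and 0 lower, against 1785 and 2429 of all 12742 genes. The accessory members' median was -0.08 without replicate 2 of WT at 48 h and 0.57 without replicate 1. The core members Ndufs3 and Ndufs7 were called higher.

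Ndufs3 (chr2:90894634-90904827), a core subunit of the arm that hands electrons to ubiquinone, had 128 and 131 CPM in dKO and 94.6 and 68.6 CPM in WT libraries at 48 h. At 24 h it had 121 and 117 CPM in dKO and 97.9 and 120 CPM in WT libraries. The groups were apart at 48 h and overlapped at 24 h. Its log2 fold change at 48 h was 0.67 ± 0.18 (SE, n = 2 libraries per group, edgeR adjusted p = 0.0432).

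Ndufs7 (chr10:80249121-80256794), the core subunit that carries the last iron-sulfur cluster of the chain, had 133 and 128 CPM in dKO and 97.3 and 71.1 CPM in WT libraries at 48 h. The groups did not overlap, and the log2 fold change was 0.64 ± 0.17 (SE, edgeR adjusted p = 0.0426). Ndufs3 overlaps Kbtbd4 on the other strand.

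Both calls were lost without replicate 2 of WT at 48 h, with edgeR adjusted p = 0.0657 for Ndufs3 and 0.0567 for Ndufs7, and each was also lost without any single library other than replicate 1 of WT at 48 h. Of the accessory genes Ndufa8, a subunit of the membrane arm, came nearest to the threshold, with 136 and 139 CPM in dKO and 107 and 85.3 CPM in WT libraries, and missed it (log2 fold change 0.52 ± 0.15, SE, edgeR adjusted p = 0.0522). Ndufs1, the largest subunit and a carrier of several clusters, had 60.2 and 66.2 CPM in dKO and 56.3 and 54.2 CPM in WT libraries, which did not overlap but gave a log2 fold change of only 0.20 ± 0.15 (SE, edgeR adjusted p = 0.386). Ndufv1, the NADH-binding subunit, had 65.8 and 74.8 CPM in dKO and 58.5 and 50.8 CPM in WT libraries (0.37 ± 0.15 on the log2 scale, SE, edgeR adjusted p = 0.119). Ndufab1, the mitochondrial acyl carrier protein, had 345 and 326 CPM in dKO and 297 and 186 CPM in WT libraries (0.48 ± 0.22, SE, edgeR adjusted p = 0.155). The X-linked accessory genes Ndufa1 and Ndufb11 had log2 fold changes of -0.20 and 0.24, with overlapping groups for Ndufa1 (54.1 and 49.0 CPM in dKO, 74.8 and 45.0 CPM in WT).

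Complex II, succinate dehydrogenase, is the only complex of the chain that also belongs to the TCA cycle and has no subunit from mitochondrial DNA. For each of its 4 genes both dKO libraries lay above both WT libraries at 48 h, by very different amounts. Sdhc (chr1:171127165-171150603), a membrane anchor that helps to form the ubiquinone site, had 94.5 and 102 CPM in dKO and 66.1 and 48.0 CPM in WT libraries. It was the member with the largest called increase, at 0.79 ± 0.17 (log2, SE, edgeR adjusted p = 0.0180). At 24 h Sdhc had 85.7 and 82.2 CPM in dKO and 66.7 and 65.1 CPM in WT libraries, again without overlap. Over both times it was the 1 member called by edgeR in either direction (DESeq2 called Sdhc and, lower, Cox7b), with a log2 fold change of 0.57 ± 0.12 (SE, edgeR adjusted p = 0.0260), when 7.8% of all genes were called, 2.28% higher and 5.52% lower. The 48 h call of Sdhc held without either WT library at 48 h (0.57 on the log2 scale without replicate 2, edgeR adjusted p = 0.0113) and was lost without any dKO library (adjusted p = 0.0540 to 0.191). The call over both times was lost without any library other than those of WT at 48 h (adjusted p = 0.0833 to 0.154).

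Sdhb (chr4:140961203-140979193), the iron-sulfur subunit, had 288 and 298 CPM in dKO and 217 and 146 CPM in WT libraries at 48 h. The groups were apart and the log2 fold change was 0.69 ± 0.19 (SE, edgeR adjusted p = 0.0471). It ran from 0.44 to 0.99 whichever library was left out. The call of Sdhb was lost without any single library other than replicate 1 of WT at 48 h. It was also lost with a mean of at least 50 counts and with only the groups compared. Sdhd, the other anchor, had 167 and 180 CPM in dKO and 148 and 96.3 CPM in WT libraries, and did not pass the test (0.51 ± 0.20, SE, edgeR adjusted p = 0.115). Sdha, the flavoprotein that oxidises succinate, was nearly level, with 122 and 124 CPM in dKO and 119 and 112 CPM in WT libraries (0.09 ± 0.13, SE, edgeR adjusted p = 0.668). Its log2 fold change over both times ran from 0.07 to 0.10 whichever library was left out.

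**Figure D4:**
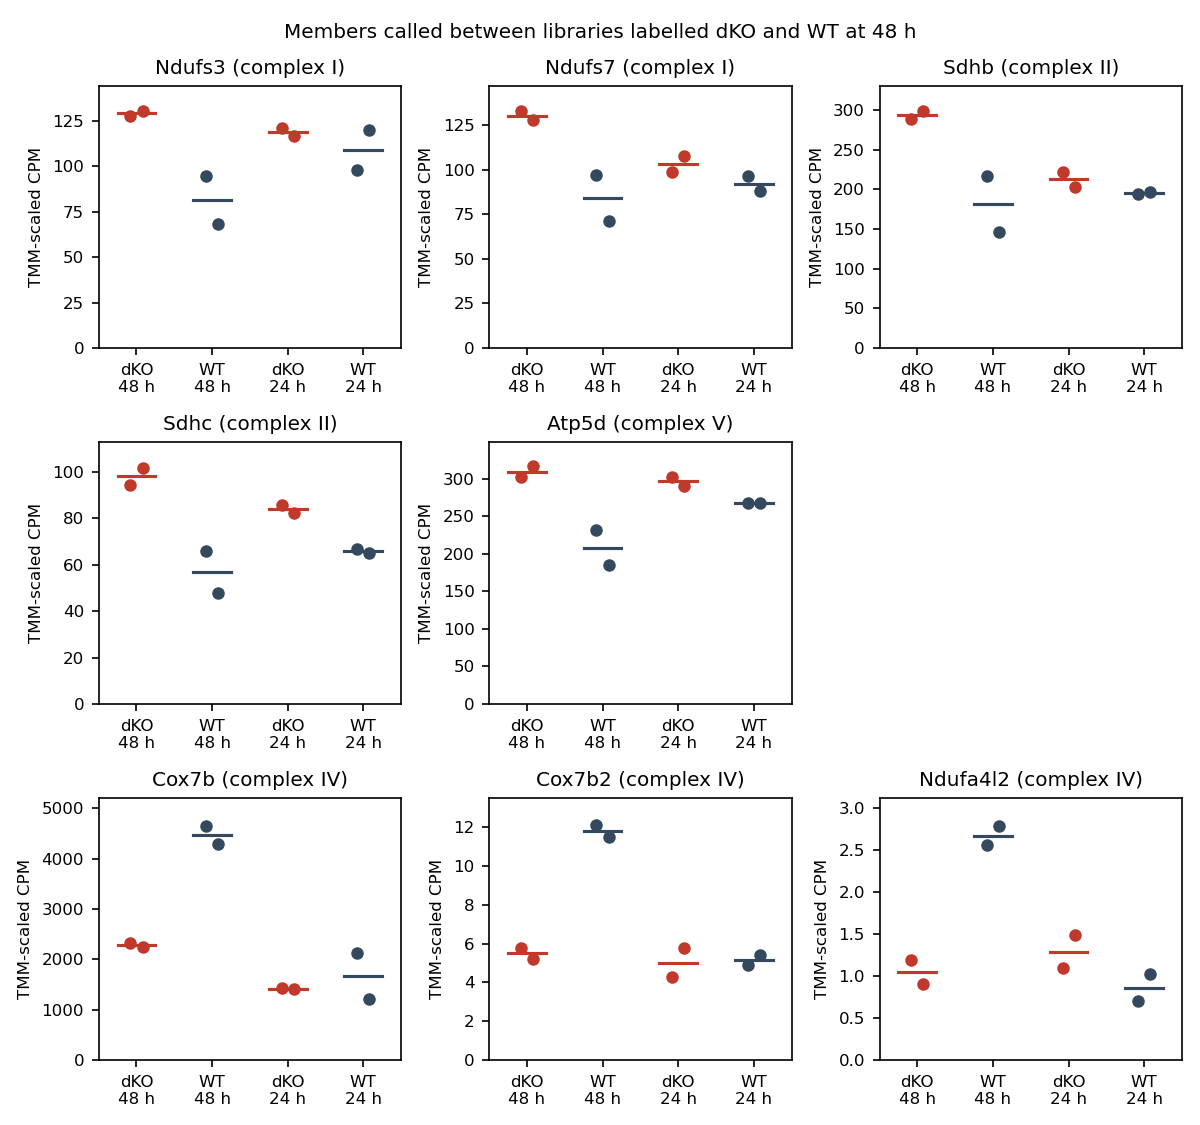
TMM-scaled CPM of 8 members called between dKO and WT at 48 h, in all 8 libraries. Points are libraries and lines are the means of 2 libraries. In the upper 5 panels the dKO libraries at 48 h lie above the WT libraries at 48 h, and in the lower 3 panels both WT libraries at 48 h stand above all 6 others.

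Promoters of the called members are shown because members that move together may be compared by the letters near their starts. RefSeq windows of 300 bases (250 before and 50 after an annotated start, build GRCm38.p6) were at hand for 69 of the 87 members, among them 4 of the 6 called higher and 2 of the 3 called lower. They were searched on both strands for GCGCA, any base and GCGC in a row (the site of NRF1, a factor known for binding respiratory chain promoters), CCGGAAG (ETS factors, which include GABP) and AAGATGGC (YY1). NRF1 letters were found in 24.6% of members with a window, 11.7% of tested genes with a window and 5.19% of all genes with one. The ETS letters were in 23.2% of members, 20.8% of tested genes and 9.93% of all, and the YY1 letters in 14.5% of members, 5.55% of tested genes and 3.19% of all. Of the 4 windows of members called higher, 0 held the NRF1 letters, 2 the ETS letters and 1 the YY1 letters. A match is a description of these letters and not a site shown to be bound. Each sequence runs 5′ to 3′ along the gene's strand, with matches in capitals: ETS letters in Ndufs3 and Sdhb, YY1 letters in Ndufs7, NRF1 letters in Sdha, which is shown as the complex II gene that stayed level, and none in Cox7b.
Ndufs3 (chr2:90904672-90904971, minus strand): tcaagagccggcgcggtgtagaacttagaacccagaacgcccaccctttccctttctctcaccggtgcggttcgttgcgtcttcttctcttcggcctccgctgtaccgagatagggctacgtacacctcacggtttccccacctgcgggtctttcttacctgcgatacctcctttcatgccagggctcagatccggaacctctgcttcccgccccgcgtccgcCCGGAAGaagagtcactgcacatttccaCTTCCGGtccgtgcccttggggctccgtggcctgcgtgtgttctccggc
Ndufs7 (chr10:80249199-80249498, plus strand): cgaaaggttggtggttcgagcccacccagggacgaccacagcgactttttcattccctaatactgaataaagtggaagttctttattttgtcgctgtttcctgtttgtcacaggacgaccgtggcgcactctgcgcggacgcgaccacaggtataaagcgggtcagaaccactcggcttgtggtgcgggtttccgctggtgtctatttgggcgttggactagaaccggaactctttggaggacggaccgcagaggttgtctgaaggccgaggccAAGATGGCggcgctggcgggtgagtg
Sdhb (chr4:140961021-140961320, plus strand): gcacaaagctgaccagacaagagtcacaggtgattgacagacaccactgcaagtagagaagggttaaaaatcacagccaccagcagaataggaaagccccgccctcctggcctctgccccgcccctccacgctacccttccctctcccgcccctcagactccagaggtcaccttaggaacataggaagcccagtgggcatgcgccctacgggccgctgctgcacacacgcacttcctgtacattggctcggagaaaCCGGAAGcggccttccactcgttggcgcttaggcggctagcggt
Sdha (chr13:74350191-74350490, minus strand): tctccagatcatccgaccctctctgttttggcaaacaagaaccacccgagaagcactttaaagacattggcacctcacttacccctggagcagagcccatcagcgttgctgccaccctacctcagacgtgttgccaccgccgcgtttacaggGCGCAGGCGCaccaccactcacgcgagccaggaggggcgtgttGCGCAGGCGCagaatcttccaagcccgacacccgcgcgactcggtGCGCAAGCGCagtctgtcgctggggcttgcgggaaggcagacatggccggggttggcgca
Cox7b (chrX:106015450-106015749, plus strand): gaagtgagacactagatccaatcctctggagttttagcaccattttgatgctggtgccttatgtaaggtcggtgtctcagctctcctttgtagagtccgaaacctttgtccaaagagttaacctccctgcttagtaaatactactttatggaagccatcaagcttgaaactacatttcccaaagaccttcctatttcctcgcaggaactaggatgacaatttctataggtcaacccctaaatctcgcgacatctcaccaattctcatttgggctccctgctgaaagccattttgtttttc

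Complex III passes electrons from ubiquinol to cytochrome c. Of its 9 tested members, which include the gene copy Uqcrh-ps1, 9 had positive values at 48 h. Of these 0 were called by edgeR, and 1, Uqcrfs1, was called by DESeq2. At an unadjusted p below 0.05, 3 were higher and 0 lower, against 1785 and 2429 of all 12742 genes. Those 3 were the large core genes. Uqcrfs1, the Rieske iron-sulfur protein, had 320 and 345 CPM in dKO and 261 and 170 CPM in WT libraries (0.63 ± 0.21 on the log2 scale, SE, edgeR adjusted p = 0.0819). Uqcrc1, a core subunit, had 191 and 201 CPM in dKO and 145 and 138 CPM in WT libraries (0.47 ± 0.15, SE, edgeR adjusted p = 0.0691). Uqcrc2, the other core subunit, had 204 and 217 CPM in dKO and 181 and 122 CPM in WT libraries (0.48 ± 0.20, SE, edgeR adjusted p = 0.130). These 3 separated by group, whereas the small subunits did not: Uqcrq, which lies near the ubiquinone pocket, had 258 and 257 CPM in dKO and 301 and 204 CPM in WT libraries, the WT values lying on both sides of dKO.

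Complex IV, cytochrome c oxidase, reduces oxygen to water, and several of its subunits exist as isoforms bound to tissues. It was the complex with members called lower. Cox7b (chrX:106015700-106022450), an X-linked small subunit, had 2317 and 2236 CPM in dKO and 4645 and 4279 CPM in WT libraries at 48 h. At 24 h it had 1425 and 1414 CPM in dKO and 2119 and 1219 CPM in WT libraries. The dKO libraries were near one another at each time, WT was widely spread at 24 h, and at 48 h WT stood far above. The log2 fold change at 48 h was -0.97 ± 0.26 (SE, edgeR adjusted p = 0.0429), and -0.23 ± 0.26 at 24 h (adjusted p = 0.912). The 48 h value stayed between -1.03 and -0.92 whichever of the 8 libraries was left out, while the call was lost without any dKO library (adjusted p = 0.105 to 0.273).

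Cox7b alone made up 11.97% and 11.90% of all member counts in dKO at 48 h, against 22.6% and 28.3% in WT at 48 h, in counts not scaled by length. Across the 8 libraries it had 4.99 to 18.8 counts per count of Cox6a1, another subunit of the complex. Per count of Csrp3, a gene known for striated muscle that is no member, it had 0.806 to 0.955 counts in all 8 libraries. Csrp3 had 2413 and 2340 CPM in dKO and 4594 and 4660 CPM in WT libraries at 48 h, over total counts. Of the 6 striated muscle markers, 4 were in the table. Their sum ran from 2417 to 2476 CPM in dKO and from 4637 to 4723 CPM in WT at 48 h, nearly all of it Csrp3. Acta1 had 62.1 and 77.2 CPM in dKO and 40.6 and 62.4 CPM in WT libraries at 48 h, over total counts. Its log2 fold change at 48 h was 0.25, against -1.14 for Csrp3. Ckm had 0 to 2 counts and Tnnt2 1 to 22 counts in every library. The pair of Cox7b and Csrp3 was singled out after its values were seen, and whether reads of these 2 genes share a source was not tested.

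Cox7b2 (chr5:71442824-71548205), a paralog of Cox7b known from testis, had 5.79 and 5.19 CPM in dKO and 12.1 and 11.5 CPM in WT libraries at 48 h, which gave a log2 fold change of -1.10 ± 0.22 (SE, edgeR adjusted p = 0.0162). It had 2.32 to 4.45 counts per 1000 counts of Cox7b, and how reads that match both genes were counted is not given, so its value is uncertain. Ndufa4l2 (chr10:127514967-127517154), an isoform known to be induced by hypoxia, was near the detection limit, at 1.19 and 0.907 CPM in dKO and 2.56 and 2.79 CPM in WT libraries (-1.36 ± 0.38 on the log2 scale, SE, edgeR adjusted p = 0.0495), and it overlaps Shmt2 on the other strand. These genes were alike in that both WT libraries at 48 h lay above every other library. The call of Cox7b2 was lost without either dKO library at 48 h (adjusted p = 0.137 and 0.191) and with DESeq2 (0.0523), and that of Ndufa4l2 without any single library other than replicate 1 of WT at 48 h.

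Of the 11 tested main isoforms of complex IV, Cox7b included, 9 had positive values at 48 h. Cox4i1, the regulatory subunit that binds ATP, had 691 and 663 CPM in dKO and 544 and 375 CPM in WT libraries at 48 h (0.56 ± 0.20 on the log2 scale, SE, edgeR adjusted p = 0.0891). Cox5a had 542 and 536 CPM in dKO and 468 and 264 CPM in WT libraries (0.56 ± 0.24, SE, edgeR adjusted p = 0.141). Neither passed the test, although the groups did not overlap for either. Cox6c had 318 and 278 CPM in dKO and 288 and 160 CPM in WT libraries, which overlapped. The remaining isoforms bound to tissues were barely detected: over all 8 libraries Cox4i2 had 8 counts, Cox8b 25, Cox7a1 43, Cox6a2 56 and Cox6b2 95, and only Cox6b2 of these passed the filter.

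Complex V makes ATP with a catalytic head, a rotating stalk and ring, and a peripheral stalk. All 17 of its tested members had positive values at 48 h, and 1 was called. Atp5d (chr10:80138632-80145818), the delta subunit of the central stalk, had 303 and 316 CPM in dKO and 231 and 185 CPM in WT libraries (0.57 ± 0.16 on the log2 scale, SE, edgeR adjusted p = 0.0490), and overlaps Cbarp on the other strand. This call was lost without replicate 2 of WT at 48 h (adjusted p = 0.0753) and without any single library other than replicate 1 of that group. The catalytic head genes did not pass: Atp5a1, the alpha subunit, had 693 and 754 CPM in dKO and 634 and 480 CPM in WT libraries (0.38 ± 0.19, SE, edgeR adjusted p = 0.200). Atp5b, the catalytic beta subunit, had 1154 and 1225 CPM in dKO and 1015 and 920 CPM in WT libraries (0.30 ± 0.18, SE, edgeR adjusted p = 0.269). Each had dKO above WT in every library. The 3 genes of the c ring, which encode the same mature protein, were Atp5g1 with a log2 fold change of 0.20, Atp5g2 with 0.50 and Atp5g3 with 0.28, and none was called. The 4 membrane subunits Atp5j2, Atp5k, Atp5l and Atp5mpl had a median of 0.03, and the 5 genes of the head and central stalk a median of 0.38. Without replicate 2 of WT at 48 h these medians were -0.27 and 0.23, and without replicate 1 they were 0.59 and 0.73.

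At 24 h most values were again positive and no member was called in edgeR or DESeq2, in a comparison that called 0.432% of all genes, 0.361% higher and 0.0706% lower. Of the 82 tested members 74 had positive values, with a median log2 fold change of 0.18 against 0.01 over all genes. At an unadjusted p below 0.05, 1 member was higher and 0 lower, against 500 and 389 of all 12742 genes. The members' median was 0.34 without replicate 1 of WT at 24 h, and 0.09, with 55 of 83 values positive, without replicate 2. It was 0.25 without replicate 1 of dKO at 24 h and 0.12 without replicate 2. The member higher at the unadjusted p was Cox6b2, which rested on few reads, with 1.09 and 2.04 CPM in dKO and 0.561 and 0 CPM in WT libraries. Both dKO libraries lay above both WT libraries for 37 members and below them for 2, against 24.3% and 20.6% of all genes. Among the better measured members Atp5k, a small membrane subunit of the ATP synthase, had 45.6 and 49.3 CPM in dKO and 36.0 and 27.4 CPM in WT libraries (0.58 ± 0.26 on the log2 scale, SE, edgeR adjusted p = 0.718).

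The difference between the genotype effects at the 2 times was tested as an interaction. It called 0 members and 0 genes of the whole table in edgeR and likewise 0 with DESeq2; at an unadjusted p below 0.05, 1 member was higher and 2 lower, and over all genes 436 were higher and 1138 lower. The effects at 48 h and at 24 h are therefore not shown to differ for any member. Without replicate 1 of WT at 48 h the members' median interaction was 0.45, against -0.03 over all genes. Without replicate 2 of that group it was -0.19, again against -0.03.

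Within dKO, subunit transcripts were higher at 48 h than at 24 h in estimate for nearly every member, and none was called when all 8 libraries shared 1 estimate of the spread. Of 82 tested members 80 had positive values with a median log2 fold change of 0.29, against -0.01 over all genes. Both 48 h libraries lay above both 24 h libraries for 67 members and below them for 0, against 32.8% and 33.5% of all genes. The test called 0 members while it called 3.63% of all genes (1.76% higher and 1.88% lower), and DESeq2 called 1 member, Cox4i1. At an unadjusted p below 0.05, 9 members were higher and 0 lower, against 1412 and 1552 of all 12742 genes. WT at 48 h is not compared here, but its spread enters the shared estimate. Leaving out its replicate 1 or replicate 2 gave medians of 0.32 and 0.31 over the members. A fit of the dKO libraries alone called 56 of 81 tested members higher and 0 lower, with a median of 0.31. That fit also called 2386 of 12195 genes higher and 2159 lower. Scaled by library size alone, the median of the members was 0.12 and that of all genes -0.18, a difference of 0.30 in both scalings.

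The largest of these values belonged to Ndufv3, an accessory subunit of the NADH-oxidising module, which had 55.7 and 50.2 CPM in dKO at 48 h and 28.3 and 35.2 CPM in dKO at 24 h (0.74 ± 0.22 on the log2 scale, SE, edgeR adjusted p = 0.0976). Cox4i1 had 691 and 663 CPM in dKO at 48 h and 435 and 446 CPM in dKO at 24 h (0.62 ± 0.20, SE, edgeR adjusted p = 0.116). Sdhb had 288 and 298 CPM at 48 h and 222 and 203 CPM at 24 h in dKO (0.46 ± 0.19, SE, edgeR adjusted p = 0.190). In each the 2 times did not overlap. Sdha was again level, with 122 and 124 CPM at 48 h and 128 and 124 CPM at 24 h in dKO.

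Within WT the picture was mixed, and 3 members of complex IV rose. The test called 3 members higher at 48 h than at 24 h and 0 lower, against 7.87% and 3.5% of all genes, and 11.4% in either direction. At an unadjusted p below 0.05, 11 members were higher and 2 lower, against 1778 and 1353 of all 12742 genes. The times did not overlap for 11 members with higher and 4 with lower values at 48 h, against 22.7% and 24.4% of all genes. Cox7b had 4645 and 4279 CPM in WT at 48 h and 2119 and 1219 CPM in WT at 24 h, a log2 fold change of 1.42 ± 0.26 (SE, edgeR adjusted p = 0.00677). Cox7b2 changed by 1.19 ± 0.22 (SE, edgeR adjusted p = 0.00652) and Ndufa4l2 by 1.63 ± 0.40 (SE, edgeR adjusted p = 0.0270). The call of Ndufa4l2 held in 1 of the 8 fits with a library left out, that without replicate 1 of WT at 48 h, and was lost with DESeq2 and with library size alone. That of Cox7b2 was lost without either WT library at 24 h, and that of Cox7b held in all 8 such fits. None of the 3 was called in a fit of the WT libraries alone. Over all members the median was 0.20 and 57 of 82 values were positive. With library size alone as the scale the members' median turned to -0.16, with that of all genes at -0.36 in place of 0.00. Leaving out replicate 1 of WT at 48 h turned the members' median to -0.15, against -0.01 over all genes. Leaving out replicate 2 of that group gave 0.50, against -0.02 over all genes. Without replicate 1 of WT at 24 h the members' median was 0.42, against -0.004 over all genes. Without replicate 2 of WT at 24 h it was 0.04, against 0.003.

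The members differed among themselves by their length: in WT cells, short and long genes had different values. Coding length was known for 80 of the 82 tested members. Across these genes, which are not independent, the log2 fold change of 48 h against 24 h in WT correlated with coding length at Spearman's rho = -0.75, against 0.14 over 11053 genes of the whole table. In dKO the same correlation was -0.04 over members and -0.29 over all genes. Genes with the shortest reading frames, such as those of the small subunits of complexes III, IV and V, had positive values in WT, and the 6 longest lay on both sides of 0, with 0.11 for Ndufs1, -0.04 for Sdha, 0.03 for Atp5a1, -0.07 for Atp5b, -0.17 for Uqcrc1 and 0.48 for Ndufv3.

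The same relation appeared between replicates of 1 group, in directions that differ. The difference of replicate 2 minus replicate 1 correlated with coding length over the members at rho = 0.56 in dKO at 48 h, 0.50 in WT at 48 h, -0.55 in dKO at 24 h and 0.69 in WT at 24 h. Over all genes these values were -0.03, 0.56, 0.09 and 0.06. The genotype difference correlated with coding length over the members at 0.54 at 48 h and -0.56 at 24 h, and over all genes at -0.48 and -0.18. Length thus moved with the members' differences in the comparisons of genotype and of time in WT, and its part in them was not tested.

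**Figure D5:**
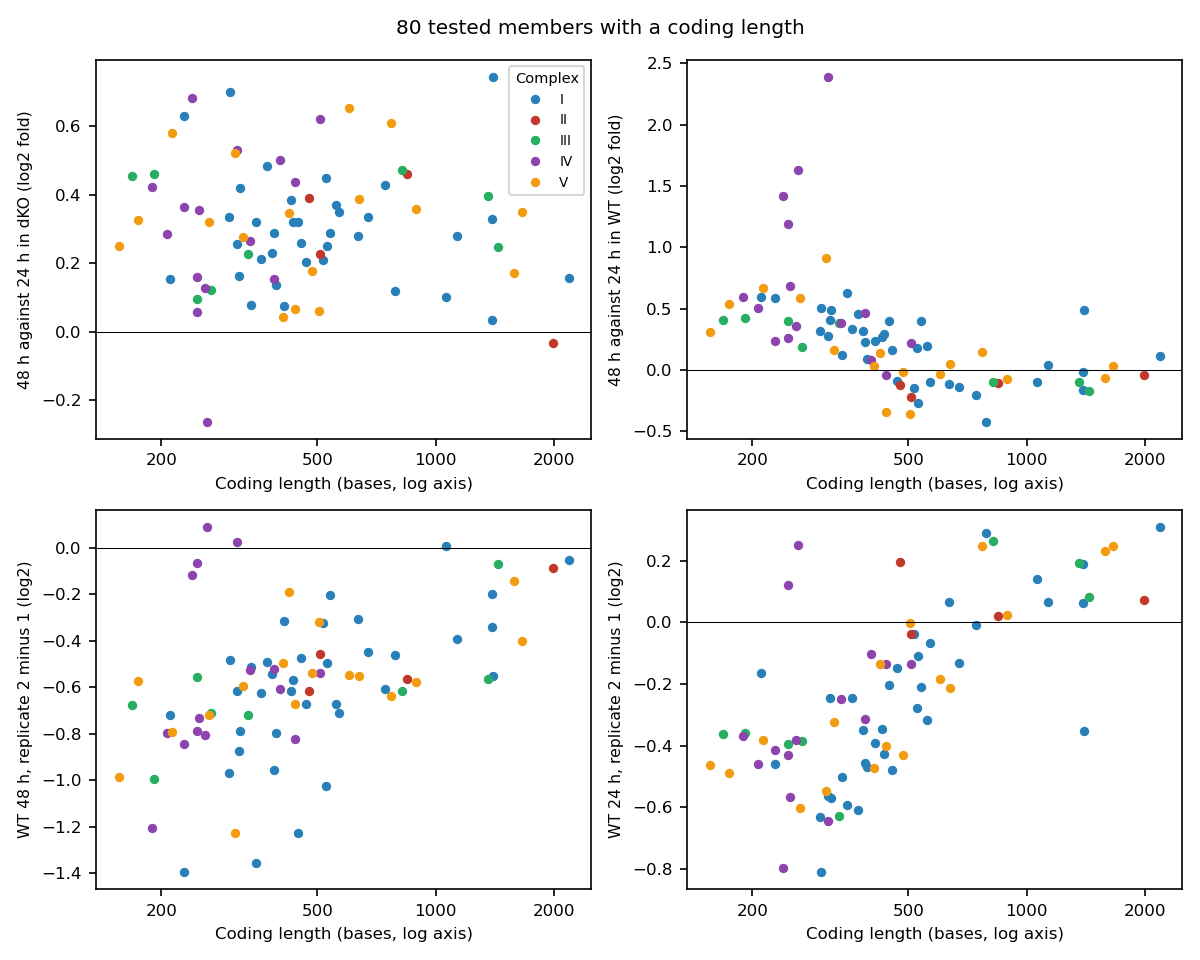
Coding length of the 80 tested members that have one (log axis) against their log2 fold change of 48 h over 24 h in dKO (upper left) and in WT (upper right), and against the difference between the replicates of WT at 48 h (lower left) and of WT at 24 h (lower right). Points are genes coloured by complex. The upper right panel falls with length (rho = -0.75) and the lower panels rise with it (0.50 at 48 h and 0.69 at 24 h).

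Genes that serve the same machinery, taken from lists and not from the name rule, were read from the same fit. Of 48 tested assembly factors of the respiratory chain, 7 were called higher and 1 lower in dKO than in WT at 48 h, with a median log2 fold change of 0.40, when 3.19% of all genes were called higher and 8.04% lower with a median of -0.03. Cox18, which inserts a mitochondrial subunit of complex IV into the membrane, had 24.95 and 25.5 CPM in dKO and 13.3 and 10.6 CPM in WT libraries (1.11 ± 0.19 on the log2 scale, SE, edgeR adjusted p = 0.0147). Coa4 had 15.2 and 15.9 CPM in dKO and 8.69 and 6.15 CPM in WT libraries (1.12 ± 0.22, SE, edgeR adjusted p = 0.0162). Both factors serve complex IV, as does Pet100 (0.93 ± 0.21, SE, edgeR adjusted p = 0.0233). The other 4 called higher, named after their values were seen, were Cox19, Coa3, Ndufaf5 and Foxred1. The 1 called lower was Cox15, needed to make the haem A of complex IV, with 8.47 and 6.22 CPM in dKO and 14.3 and 19.3 CPM in WT libraries (-1.22 ± 0.23, SE, edgeR adjusted p = 0.0148).

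Of 25 tested electron carriers, further subunits and coenzyme Q genes, 1 was called higher at 48 h, Coq7, a hydroxylase of coenzyme Q synthesis, at 0.61 ± 0.17 (log2, SE, edgeR adjusted p = 0.0480), and the median was 0.42. Cyc1, the cytochrome c1 of complex III that lies outside the name rule, had 419 and 410 CPM in dKO and 319 and 274 CPM in WT libraries, and was not called (0.49 ± 0.16, SE, edgeR adjusted p = 0.0722). Of 21 tested genes of the TCA cycle and pyruvate entry, 1 was called higher, Fh1 or fumarase, with 87.5 and 99.3 CPM in dKO and 55.7 and 48.0 CPM in WT libraries (0.85 ± 0.15, SE, edgeR adjusted p = 0.0147), and the median was 0.22. Of 23 tested regulators of mitochondrial biogenesis and mitochondrial DNA, Clpp, a matrix protease, was called higher (0.72 ± 0.15, SE, edgeR adjusted p = 0.0174) and Polg, the mitochondrial DNA polymerase, lower (-0.76 ± 0.20, SE, edgeR adjusted p = 0.0404), with a median of 0.17. In the last 3 of these lists 1 gene was called in each direction at most, which is near the share over all genes. At 24 h 0 genes of these 4 lists were called in edgeR. At an unadjusted p below 0.05, 2 assembly factors were higher, and 1 gene of the electron carrier list and 1 regulator were lower. Over all 12742 genes 500 were higher and 389 lower at that p.

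In time, 2 genes of these lists rose in both genotypes. Over all genes, 1.76% were called higher and 1.88% lower at 48 h in dKO, and 7.87% and 3.5% in WT. Each list held at most 2 genes called in a direction in either genotype, too few to be read as a result about a list. Cox17, the copper carrier for complex IV, had a log2 fold change, 48 h over 24 h, of 1.24 ± 0.27 in dKO (SE, edgeR adjusted p = 0.0396) and of 1.40 ± 0.28 in WT (adjusted p = 0.00940). Atpif1, the inhibitor of the ATP synthase, changed by 1.27 ± 0.26 in dKO (SE, edgeR adjusted p = 0.0287) and by 1.06 ± 0.26 in WT (adjusted p = 0.0264). Surf1, another complex IV assembly factor, was called in dKO (0.84 ± 0.17, SE, edgeR adjusted p = 0.0280) and not in WT (0.25 ± 0.17, adjusted p = 0.402), and its interaction did not pass either (adjusted p = 0.378). Gpd2, which feeds electrons from glycerol phosphate to ubiquinone, was lower at 48 h in dKO (-0.81 ± 0.16, SE, edgeR adjusted p = 0.0256), and so was Polg (-0.98 ± 0.20, adjusted p = 0.0310). In WT 4 genes of these lists were lower at 48 h: Coq10b, a coenzyme Q binding protein (-0.95 ± 0.27, SE, edgeR adjusted p = 0.0496), Fh1 (-0.61 ± 0.15, adjusted p = 0.0302), Idh2, the mitochondrial NADP-dependent isocitrate dehydrogenase (-0.64 ± 0.15, adjusted p = 0.0247), and Clpp (-0.64 ± 0.15, adjusted p = 0.0229). Pcx, pyruvate carboxylase, was higher in WT at 48 h (2.21 ± 0.47, SE, edgeR adjusted p = 0.0134). It rested on few reads, with 2.39 and 2.89 CPM in WT at 48 h and 0.841 and 0.293 CPM in WT at 24 h. In dKO it changed by 1.52 ± 0.49 and was not called (SE, edgeR adjusted p = 0.116).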

How the data were processed

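RNA was sequenced from 8 libraries of mouse CD8+ T cells, 2 for each of 2 genotype labels at 24 h and 48 h. The deposited values are whole-number counts per gene symbol, made by the authors. The submitters' processing notes name cutadapt 1.18, Bowtie2 2.2.5 and the build mm10. The counting program, its annotation, its strand rule, any molecular identifiers and whether only 5' ends were counted are not given in these sources. Shares and ratios of counts between genes, such as those of Cox7b, therefore describe counts and not relative RNA levels. The last, unnamed entry equals the column total (50.0% of each column sum) and was left out; 0 columns were left unmapped.

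Counts were tested with edgeR 4.0.16 in R 4.3.3 (quasi-likelihood, two-sided): TMM scaling, filterByExpr with a minimum count of 10, all 8 libraries in 1 fit with a mean per group, and Benjamini-Hochberg adjustment over 12742 genes. The method was tested on simulated data. Alternatives were median-ratio or library-size scaling, no filter, a mean of at least 50 counts, DESeq2 1.42.0, a replicate block, only the groups compared, and each library left out.

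Named members are, per comparison, up to 8 called in each direction with groups that do not overlap and at least 20 counts on average, up to 4 per complex with the smallest p, a fixed list of main subunits, isoforms bound to tissues and X-linked members. From each related list, up to 4 genes with the smallest p in a genotype comparison and up to 4 in a time comparison could be named. One member called at 48 h is counted in the totals and is not reported by name here. The members, lists and rules were chosen with earlier results of these data known.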

Additional observations from a re-analysis of the deposited data

Results flagged for a closer look

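In 6 of the 82 tested members the effect of genotype or of time had opposite signs in the groups it was read in, with every library on the side of its group. Cox8b, with 25 counts in all and not tested, had the same pattern. The share of all genes with such a pattern was not counted. In each direction of a comparison, 20.6% to 33.5% of all genes had groups that did not overlap. The 6 are therefore not read as particular to the members. None of the 6 interactions passed the adjusted test in edgeR, and the difference is not shown for any of them. Ndufa4l2, a low-count isoform, was above WT in both dKO libraries at 24 h and below WT at 48 h, with an interaction of -1.89 ± 0.61 (log2, SE, edgeR adjusted p = 0.369). Ndufv2, a core subunit of the NADH-oxidising module, was below WT in both dKO libraries at 24 h and above it at 48 h (0.63 ± 0.28, adjusted p = 0.394), and so was Ndufb10, an accessory subunit of the membrane arm (0.52 ± 0.25, adjusted p = 0.424). Ndufs3 was above its 24 h libraries at 48 h in dKO and below them in WT (0.54 ± 0.25, adjusted p = 0.421). The same pattern in time was seen for Atp5d (0.43 ± 0.23, adjusted p = 0.450) and Uqcrc1 (0.42 ± 0.21, adjusted p = 0.436).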

How the results depend on the processing

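With 2 libraries per group, calls were few and moved with single libraries; a library left alone in its group was assumed to vary like the others. Members called higher in dKO than in WT at 48 h (6) numbered 27 with library size alone, 14 without a filter, 1 with a mean of at least 50 counts, 3 with the replicate block, 0 with only the groups compared and 0 to 59 with 1 library left out. Members called lower at 48 h (3) numbered 1 with DESeq2, 1 with only the groups compared, 2 with the replicate block and 2 with library size alone. These calls also changed with 1 library left out. Over both times (1 higher, 0 lower), 8 were higher with library size alone and 10 without a filter, 2 were lower without a filter, 1 with a mean of at least 50 counts and 1 with DESeq2, and leaving out 1 library gave 0 to 60 higher and 0 to 2 lower. The interaction gave 0 to 29 higher and 0 to 1 lower with 1 library left out. For 48 h against 24 h in dKO (0 called), 7 were higher without a filter, 1 with DESeq2, 56 with only the groups compared and 0 to 30 with 1 library left out. In WT (3 higher, 0 lower), 12 were higher without a filter and 0 with only the groups compared, 9 were lower with library size alone, and leaving out 1 library gave 1 to 39 higher and 0 to 13 lower. Calls over all genes moved in these fits too. Genes called higher in dKO than in WT at 48 h (406) numbered 1624 with library size alone and 940 of 22981 without a filter. They numbered 234 of 9215 with a mean of at least 50 counts, 322 with the replicate block and 46 with only the groups compared. For 48 h against 24 h with only the groups compared, 2386 genes were higher in dKO and 27 in WT. The causes were not tested. Library size alone moved the median of all genes at 48 h to 0.15, and the members' median relative to it was 0.32 in both scalings. Replicate numbers did not pair the libraries (correlations of deviations -0.08 to 0.17).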
